A study of Arabidopsis thaliana with 9 samples.

Results

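The genes described here are the nuclear genes that encode the machinery of the photosynthetic light reactions in Arabidopsis. They were chosen by locus identifier from the role of their products, and 51 of the 28642 genes in the expression table belong to them. By the role of the protein they comprise 6 genes for the antenna of photosystem I (*LHCA*), 14 for the antenna of photosystem II (*LHCB*), 13 for photosystem I subunits, 10 for photosystem II subunits, 6 for electron carriers and 2 for ATP synthase subunits. All 51 passed the filter on low counts.

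In the light reactions, chlorophyll bound to antenna proteins collects light and passes its energy to the photosystem II and photosystem I reaction centres. Electrons taken from water at photosystem II travel through the cytochrome *b6f* complex and plastocyanin to photosystem I, and then through ferredoxin and ferredoxin-NADP+ reductase to NADPH, while the proton gradient drives ATP synthase. The reaction centre cores are encoded in the plastid, and the antenna and a number of other subunits in the nucleus. Light, the circadian clock and signals from the plastid are known to act on transcription of these nuclear genes. The plastid-encoded genes were not analysed here.

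RNA-seq was performed on shoots of 3 genotypes, with 3 libraries each: *vtc3-3*, *vtc2-4* and the wild type Col-0. *vtc3-3* (SALK_095743) carries a T-DNA in *VTC3*, which encodes a protein with kinase and phosphatase domains, and *vtc2-4* (SAIL_769_H05) one in *VTC2*, which encodes GDP-L-galactose phosphorylase of the ascorbate pathway, so that each mutant genotype is represented by 1 insertion line. All plants were 2 weeks old and had been raised on diluted MS medium that held 1% sucrose, in days of 16 h of light. They were then kept dark for 2 d and given light of 100 µmol photons per square metre and second for 6 h. All 3 genotypes therefore received the same dark and light treatment, and the comparisons are between genotypes after 6 h of light. The shoots of each library came from pooled plants. Whether the replicates were grown on separate occasions is not stated, so that p-values measure only the spread between these libraries.

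Libraries held 4399733 to 7567492 gene reads. *VTC3* had 12 to 33 reads in *vtc3-3*, 113 to 130 in *vtc2-4* and 75 to 110 in the wild type, and *VTC2* had 37 to 51 reads in *vtc2-4*, against 2842 to 5345 in the other two genotypes. The 5 root markers had 0 to 2 reads in every library, whereas the shoot markers *RBCS1A* and *RCA* had at least 22000 and 9942 reads. The first library of the wild type was unlike the 8 others. Over 16966 genes its deviation from the median of the others was correlated with the logarithm of exon length (*r*=-0.57) and with exon GC content (*r*=-0.55), against *r* of -0.03 to 0.17 and -0.04 to 0.15 for the other libraries. Its intron reads made up 1.62% of gene reads, against 1.12-1.26% elsewhere. The counts of genes called and the medians below are therefore given with and without this library.

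The sequences upstream of 4 *LHCB* genes are shown because these genes carried the largest difference between genotypes, or, for *LHCB1.5*, because it is the neighbour of *LHCB1.4* and did not share that difference. *LHCB1.5* (AT2G34420, chr2:14522524-14523568, minus strand) and *LHCB1.4* (AT2G34430, chr2:14524607-14525918, plus strand) point away from each other with 1038 bases between them. Each window holds the 250 bases before the start of the gene in RefSeq's annotation of TAIR10.1, written 5′ to 3′ on the strand of the gene. Capitals mark letters of 5 motifs known from light- and clock-regulated plant promoters, searched on both strands.

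LHCB1.4 (chr2:14524357-14524606, plus strand): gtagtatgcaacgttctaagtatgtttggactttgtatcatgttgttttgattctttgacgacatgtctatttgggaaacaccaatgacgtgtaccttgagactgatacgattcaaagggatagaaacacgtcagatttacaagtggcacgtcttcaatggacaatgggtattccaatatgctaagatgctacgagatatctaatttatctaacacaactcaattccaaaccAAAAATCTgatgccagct
LHCB1.5 (chr2:14523569-14523818, minus strand): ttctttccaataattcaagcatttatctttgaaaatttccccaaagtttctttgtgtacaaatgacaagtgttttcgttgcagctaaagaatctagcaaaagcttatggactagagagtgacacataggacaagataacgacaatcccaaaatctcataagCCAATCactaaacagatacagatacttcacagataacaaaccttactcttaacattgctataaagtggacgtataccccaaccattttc
LHCB2.3 (chr3:10255656-10255905, plus strand): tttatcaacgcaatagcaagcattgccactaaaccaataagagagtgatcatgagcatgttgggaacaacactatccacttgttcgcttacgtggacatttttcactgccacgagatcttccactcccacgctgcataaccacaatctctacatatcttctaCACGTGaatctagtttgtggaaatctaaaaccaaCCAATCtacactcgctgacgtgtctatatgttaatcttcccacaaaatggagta
LHCB4.2 (chr3:2717307-2717556, plus strand): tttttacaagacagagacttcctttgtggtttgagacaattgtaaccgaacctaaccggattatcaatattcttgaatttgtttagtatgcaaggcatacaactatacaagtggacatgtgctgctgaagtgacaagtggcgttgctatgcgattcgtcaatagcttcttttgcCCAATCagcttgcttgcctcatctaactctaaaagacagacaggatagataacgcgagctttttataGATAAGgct

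The window of *LHCB1.4* held a CCA1-binding sequence (AAAAATCT) and none of the other motifs. That of *LHCB1.5* held a CCAAT-type element (here CCAATC), that of *LHCB2.3* a G-box (CACGTG) and a CCAAT-type element, and that of *LHCB4.2* an I-box (GATAAG) and a CCAAT-type element. The CCAAT-type element occurred in the windows of 14 of the 51 genes (27.5%), against 10.7% of the 17309 tested genes with a window. For the I-box these shares were 23.5% and 12.3%, for the G-box 19.6% and 7.57%, for the CCA1-binding sequence 9.8% and 7%, and for the evening element (AAAATATCT) 3.92% and 2.58%. The first bases of AAAAATCT and of AAAATATCT are alike, but neither motif contains the other. Such matches describe the letters of a window, the lack of one says nothing about a factor, and RefSeq's starts differ from those of the expression table at many genes.

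Together the light-reaction genes took a larger share of the reads in *vtc2-4* than in the other two genotypes. They accounted for 6.30%, 6.61% and 6.65% of gene reads in the *vtc3-3* libraries, 7.26%, 7.47% and 7.02% in *vtc2-4*, and 5.48%, 6.26% and 6.48% in the wild type. All *vtc2-4* libraries lay above all others. Wild-type replicate 1 had the lowest share, and the 2 other wild-type libraries fell within or just below the range of *vtc3-3*. The mean share was 1.19 times that of the wild type in *vtc2-4* and 1.07 times in *vtc3-3*, and 1.14 and 1.02 times that of wild-type replicates 2 and 3 alone. In bulk shoots the number of photosynthetic cells and the amount of RNA per cell cannot be told apart. For *vtc2-4* against the wild type and for *vtc3-3* against *vtc2-4* an exact two-sided permutation test gave *p*=0.1, the smallest value that 3 against 3 libraries allow (adjusted over 9 such tests, 0.129), with wild-type replicate 1 included.

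The photosystem II antenna took the largest part of this share. The 14 *LHCB* genes took 2.36%, 2.53% and 2.54% of reads in *vtc3-3*, 2.81%, 2.88% and 2.66% in *vtc2-4*, and 1.53%, 2.29% and 2.44% in the wild type. Photosystem I subunits took 1.21% ± 0.04, 1.34% ± 0.04 and 1.15% ± 0.08 in *vtc3-3*, *vtc2-4* and the wild type (SD, *n*=3 each), where wild-type replicate 1 had 1.06%. Photosystem II subunits took 1.13-1.16% in *vtc3-3*, 1.26-1.34% in *vtc2-4* and 1.15-1.26% in the wild type. The electron carriers took 0.58-0.601% in *vtc3-3* and 0.608-0.636% in *vtc2-4*, which did not overlap, while the wild type, at 0.585-0.661%, overlapped both. The ATP synthase subunits overlapped between all genotypes.

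**Figure D1:**
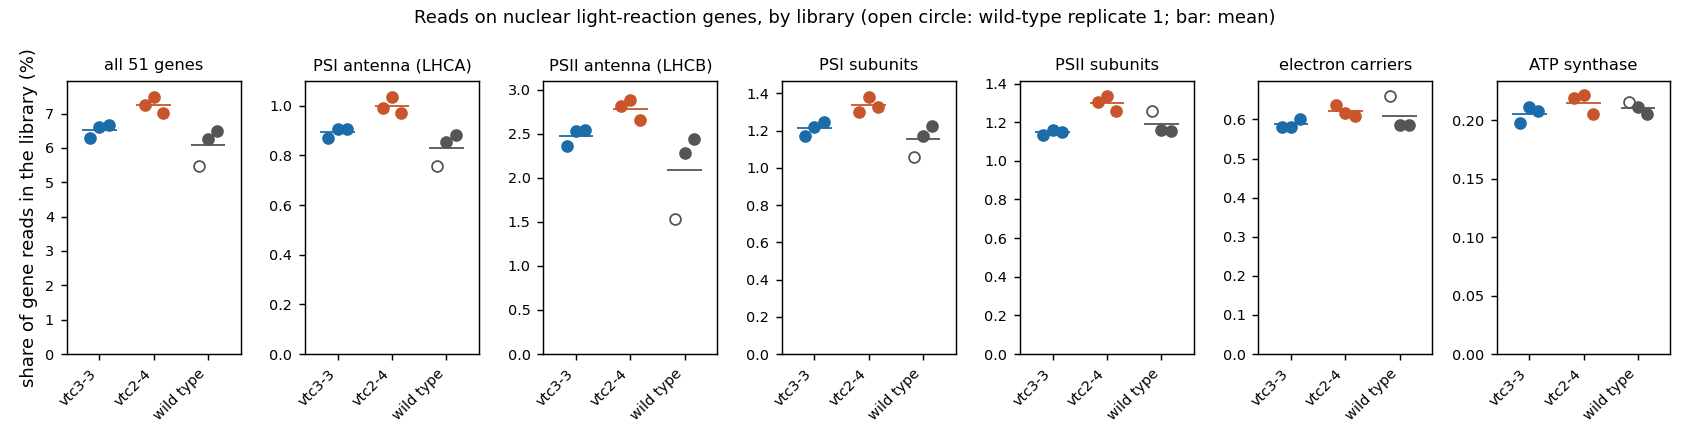
Share of all gene reads (%) that fell on the 51 genes and on each role group, with 1 point per library, for *vtc3-3*, *vtc2-4* and the wild type from left to right; horizontal bars are means, and the open circle is wild-type replicate 1. The *vtc2-4* libraries (7.02-7.47% for all 51 genes) lie above the others, and wild-type replicate 1 lies lowest for the *LHCB* genes (1.53%) but highest for the electron carriers (0.661%).

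Levels are given as RPKM, reads scaled by the authors to exon length and to the number of mapped reads, since this unit allows genes of different length to be compared. Averaged over the 9 libraries, the genes ranged from 6.94 RPKM for *LHCB4.3* to 6353 for *LHCB1.3*. The mutant libraries of the same genotype lay close together, and those of the wild type did not. The median coefficient of variation over the 51 genes was 3.54% in *vtc3-3*, 3.48% in *vtc2-4* and 23.2% in the wild type, and 3.55% between wild-type replicates 2 and 3.

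*LHCB1* encodes the most abundant protein of the mobile trimeric antenna, LHCII, and has 5 genes. *LHCB1.3* (AT1G29930), the highest of all 51, had 6232, 7105 and 6728 RPKM in *vtc3-3*, 7409, 7166 and 6577 in *vtc2-4*, and 3769, 5942 and 6245 in the wild type. It contributed 45.5-50.2% of the summed *LHCB1* RPKM in every library. *LHCB1.1* (AT1G29920) had 2230.5, 2436 and 2404 RPKM in *vtc3-3*, 2732, 2731 and 2449.7 in *vtc2-4*, and 2004, 2118 and 2426 in the wild type. *LHCB1.2* (AT1G29910) had 1625, 1793 and 1806, 2086, 1971 and 1821, and 1119.8, 1574 and 1695 RPKM in the libraries of *vtc3-3*, of *vtc2-4* and of the wild type. These 3 neighbours on chromosome 1 are 95.6-96.4% identical in coding sequence, so that reads could be divided among them by the counting, although at least 98.6% of the exon reads of each *LHCB1* gene were counted as unique.

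*LHCB1.4* showed the largest difference of all 51 genes. It had 172, 202 and 225 RPKM in *vtc3-3*, 337, 399 and 322 in *vtc2-4*, and 66.1, 143 and 179 in the wild type, from 999-1310 reads in *vtc3-3*, 2252-2914 in *vtc2-4* and 363-1054 in the wild type. Every *vtc2-4* library was above every other library, and *vtc3-3* overlapped the wild type. Its neighbour *LHCB1.5*, 92.5% identical in coding sequence, had 2467, 2613 and 2550.2 RPKM in *vtc3-3*, 2637, 3078 and 2590.0 in *vtc2-4*, and 1318, 2649 and 2704 in the wild type, with overlap between all genotypes. The ratio of *LHCB1.4* to *LHCB1.5* RPKM, formed within each library, was 0.0696, 0.0771 and 0.0883 in *vtc3-3*, 0.128, 0.130 and 0.125 in *vtc2-4*, and 0.0501, 0.0541 and 0.0661 in the wild type. This ratio was chosen after its values were seen. In it wild-type replicate 1 was close to the other wild-type libraries, and the 3 genotypes did not overlap (exact two-sided permutation *p*=0.1 for each pair of genotypes, the smallest possible; adjusted over 9 tests, 0.129).

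**Figure D2:**
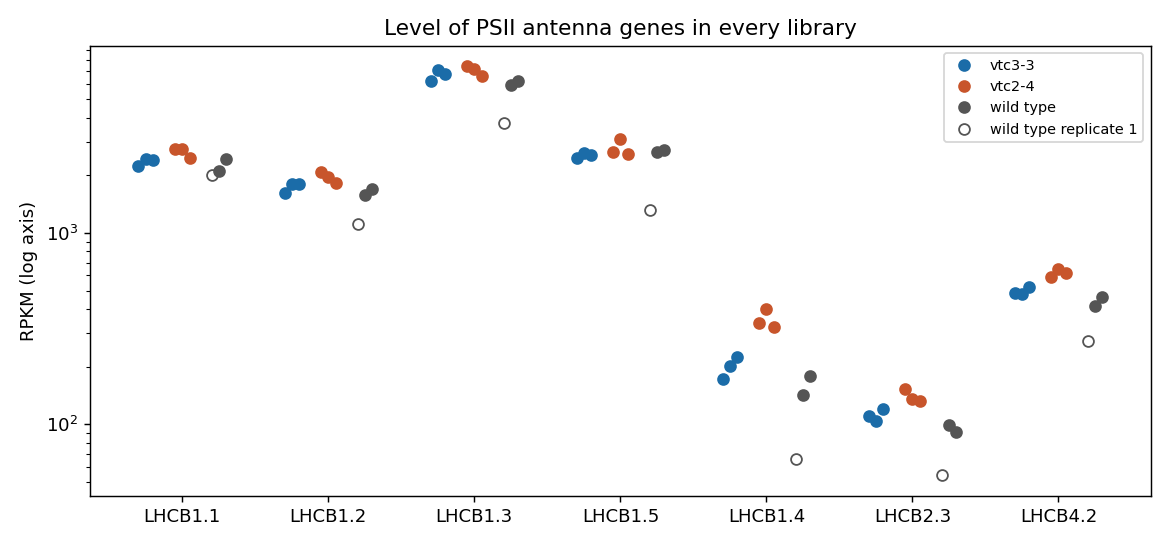
RPKM on a logarithmic axis of the 5 *LHCB1* genes, *LHCB2.3* and *LHCB4.2*, with 1 point per library and *vtc3-3*, *vtc2-4* and the wild type from left to right within each gene; the open circle is wild-type replicate 1. *LHCB1.4* is at 322-399 RPKM in *vtc2-4*, above all other libraries, while the points of its neighbour *LHCB1.5* overlap.

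*LHCB2*, the other main LHCII protein and a target of the kinase that moves antenna between the photosystems, has 3 genes. *LHCB2.3* (AT3G27690), the lowest of them, had 110.2, 104 and 120.4 RPKM in *vtc3-3*, 153, 135 and 132 in *vtc2-4*, and 54.3, 99.0 and 90.8 in the wild type. Again *vtc2-4* was above all other libraries, and *vtc3-3* lay between it and the wild type without overlapping either. *LHCB2.1* (AT2G05100) and *LHCB2.2* (AT2G05070) averaged 1085 and 809 RPKM over the 9 libraries, with some of the reads of both not uniquely placed.

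*LHCB4* (CP29), *LHCB5* (CP26) and *LHCB6* (CP24) are the minor antenna proteins that link LHCII to the photosystem II core. *LHCB4.2* (AT3G08940) had 485, 480.3 and 521 RPKM in *vtc3-3*, 590.2, 645 and 618 in *vtc2-4*, and 273, 415 and 461 in the wild type, and the genotypes did not overlap. *LHCB4.1* (AT5G01530) was higher in level, at 1345 RPKM on average. *LHCB4.3* (AT2G40100) was far lower, from 29 to 82 reads per library, with 7.37, 7.32 and 6.34 RPKM in *vtc3-3*, 7.82, 6.61 and 8.46 in *vtc2-4*, and 3.67, 8.74 and 6.11 in the wild type. *LHCB5* and *LHCB6* averaged 1699 and 1205 RPKM.

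Of the photosystem I antenna genes, *LHCA4* (AT3G47470) was highest, with 2043, 2078 and 2117 RPKM in *vtc3-3*, 2403, 2457 and 2305 in *vtc2-4*, and 2527, 1972 and 2098 in the wild type. Here the first wild-type library was the highest of all 9, in contrast to the *LHCB* genes. *LHCA6* (AT1G19150), which serves in docking the NDH complex to photosystem I, was lowest, with 72.0, 73.6 and 71.3 RPKM in *vtc3-3*, 82.2, 83.8 and 83.2 in *vtc2-4*, and 42.0, 69.8 and 66.8 in the wild type. Its *vtc2-4* libraries were above all others.

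Among photosystem I subunits *PSAL* (AT4G12800), which binds LHCII, had the highest mean over the 9 libraries, at 1967.4 RPKM against 1967.1 for *PSAF*. *PSAL* had 1977, 2076 and 2003 RPKM in *vtc3-3*, 2079, 2301 and 2102 in *vtc2-4*, and 1262, 1932 and 1974 in the wild type. This order rested on wild-type replicate 1, where *PSAF* had 870 RPKM. *PSAF* was higher in wild-type replicates 2 and 3 (1959 and 2108) and in the mean of each mutant. Several stromal subunits are encoded by pairs of genes. For PsaD, which docks ferredoxin, the minor gene *PSAD2* had 385, 400.3 and 422 RPKM in *vtc3-3*, 455, 494 and 470.1 in *vtc2-4*, and 330.5, 395 and 419 in the wild type, and the major gene *PSAD1* had 1395, 1519.7 and 1469, 1469, 1579.8 and 1441, and 1051, 1433 and 1456 RPKM in the same libraries. The *vtc2-4* libraries stood above the others for *PSAD2* and overlapped them for *PSAD1*.

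PsaE also contacts ferredoxin. *PSAE2* (AT2G20260), the lowest photosystem I gene, had 283, 272 and 274 RPKM in *vtc3-3*, 332, 334 and 341 in *vtc2-4*, and 404, 262 and 302 in the wild type, and *PSAE1* had 1342, 1329 and 1423, 1427, 1519 and 1501, and 1548, 1309 and 1396 RPKM. Wild-type replicate 1 was the highest library for both, and without it the *vtc2-4* libraries were above the wild type for both. For PsaH, which forms part of the LHCII docking site, *PSAH2* had 1251, 1247 and 1314 RPKM in *vtc3-3*, 1308, 1397 and 1399.6 in *vtc2-4*, and 1299, 1186 and 1225 in the wild type, and *PSAH1*, of whose reads part was not uniquely placed, had 761, 808 and 799, 825, 871 and 871, and 502, 775 and 804. Neither *PSAH* gene passed a test between genotypes. *PSAN* (AT5G64040), a lumenal subunit near the plastocyanin site, had 709.5, 728 and 762 RPKM in *vtc3-3*, 889.9, 886 and 872 in *vtc2-4*, and 1837, 787 and 713 in the wild type. In wild-type replicate 1 it was far above every other library, and the 2 other wild-type libraries lay below *vtc2-4*.

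The photosystem II subunit with the highest level was *PSBR* (AT1G79040), which stabilizes the oxygen-evolving proteins, with 2565, 2658 and 2471 RPKM in *vtc3-3*, 2843, 3022 and 2676 in *vtc2-4*, and 5633, 2736 and 2803 in the wild type. Wild-type replicate 1 again stood apart. PsbO and PsbQ belong to the oxygen-evolving complex itself. *PSBO1* had 1956, 1995 and 2035 RPKM in *vtc3-3*, 2306, 2364 and 2277 in *vtc2-4*, and 1016, 2049.5 and 2051 in the wild type, and *PSBO2* had 706, 732 and 724, 803, 772 and 724, and 639, 706 and 629.6. *PSBQ1* had 671, 689 and 692 RPKM in *vtc3-3*, 830.2, 839 and 829 in *vtc2-4*, and 621, 710.5 and 652 in the wild type. *PSBQ2*, the lowest photosystem II gene, had 559.5, 599 and 572, 696, 718 and 656, and 909.7, 568 and 534 RPKM. For *PSBO1* and *PSBQ1* the *vtc2-4* libraries were above all others, whereas *PSBQ2* reached its highest level in wild-type replicate 1. *PSBX* (AT2G06520), a small membrane-spanning subunit, had 1138, 1104 and 1150.1 RPKM in *vtc3-3*, 1357, 1452 and 1437 in *vtc2-4*, and 783, 1133 and 1118 in the wild type. For it too *vtc2-4* stood above all other libraries.

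Among electron carriers, the plastocyanin gene *PETE2* (AT1G20340) was highest, with 2074, 2009.7 and 2102 RPKM in *vtc3-3*, 2291, 2233 and 2241 in *vtc2-4*, and 2575, 1956 and 2040.1 in the wild type. The second plastocyanin gene, *PETE1* (AT1G76100), was lowest, with 141, 147 and 148 RPKM in *vtc3-3*, 172, 165 and 166 in *vtc2-4*, and 106, 134 and 127 in the wild type. Its 3 genotypes did not overlap. The 2 leaf genes for ferredoxin-NADP+ reductase differed: *FNR2* had 604, 605 and 626 RPKM in *vtc3-3*, 776, 722 and 724 in *vtc2-4*, and 1194, 693 and 651 in the wild type, whereas *FNR1* had 548, 516 and 546, 558, 549 and 538, and 565, 536 and 541. All *FNR2* values of *vtc3-3* were below those of the 2 other genotypes, and *FNR1* overlapped throughout. The ATP synthase genes *ATPD* and *ATPC1* averaged 1002 and 746 RPKM and went opposite ways in wild-type replicate 1, with 1576 and 414 RPKM there, against 863-1004 and 748-816 in the 8 other libraries.

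With all 9 libraries, which was the design set for the test, no light-reaction gene reached an adjusted *p* below 0.05 for *vtc2-4* against the wild type (edgeR's quasi-likelihood test with Benjamini-Hochberg adjustment over 17388 genes). Of all genes tested, 0.426% passed as higher and 0.173% as lower in *vtc2-4*. The smallest adjusted *p* among the 51 was that of *LHCB1.4*, at 0.091 (edgeR), with a log2 fold change of 1.45 ± 0.31 (SE). Without adjustment 15 genes were higher at *p* below 0.05 and none lower, against 4.19% higher and 5.71% lower of all genes. DESeq2 called 6 genes higher, where 0.857% of all genes passed as higher and 0.776% as lower, and the edgeR exact test called 2, where these shares were 0.943% and 0.771%. The fold changes of the 51 genes leaned one way: 44 were above 0, with a median of 0.29 on the log2 scale, against -0.01 for all genes tested. *LHCB2.3* (0.81 ± 0.21) and *LHCB4.2* (0.70 ± 0.19) had the next largest values, with adjusted *p* of 0.18 and 0.215 (edgeR).

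Without wild-type replicate 1, 25 of the 51 genes were higher in *vtc2-4* than in the 2 remaining wild-type libraries and none was lower (edgeR's quasi-likelihood test), where 3.03% of 17631 genes passed as higher and 3.01% as lower. The median log2 fold change of the 51 genes was 0.21 (1.16-fold), against 0.01 for all genes, and 49 were above 0. Without any test, the *vtc2-4* libraries all lay above the 3 wild-type libraries for 27 of the 51 genes and below them for none, against 8.43% and 8.14% of all genes. Against wild-type replicates 2 and 3 alone they lay above for 38 genes and below for *FD2*, against 17.6% and 17.3%. The number of genes called rested partly on each wild-type library, and was 11 without wild-type replicates 1 and 2, where 1.71% of all genes passed as higher and 1.69% as lower, and 14 without replicates 1 and 3, where 1.33% and 1.49% did. In a fit that kept all 9 libraries and gave each a quality weight (limma voom), 21 were higher and none lower, where 2.63% of all genes passed as higher and 2.8% as lower. Wild-type replicate 1 received a weight of 0.0454 there, against 1.29-1.74 for the others.

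Of the *LHCB* genes 9 of 14 were higher in *vtc2-4* without wild-type replicate 1. *LHCB1.4* rose 2.18-fold (log2 1.13 ± 0.11, adjusted *p*=1.23e-06, edgeR), *LHCB2.3* 1.49-fold (0.58 ± 0.08, adjusted *p*=4.88e-05) and *LHCB4.2* 1.41-fold (0.49 ± 0.06, adjusted *p*=3.41e-05). The others that rose, *LHCB1.2*, *LHCB2.2*, *LHCB3*, *LHCB4.1*, *LHCB5* and *LHCB6*, did so by 1.18- to 1.27-fold, and had values of 1.25- to 1.58-fold with all 9 libraries, where none passed. The genes that did not pass included the highest, *LHCB1.3* (log2 0.21 ± 0.07, adjusted *p*=0.0828), together with *LHCB1.1*, *LHCB1.5*, *LHCB2.1* and *LHCB4.3*. *LHCB1.4* and *LHCB2.3* were thus the lowest in level of their families, and *LHCB4.2* the middle one.

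The 4 photosystem I antenna genes that passed were *LHCA1*, *LHCA2*, *LHCA4* and *LHCA6*, at 1.17- to 1.22-fold. *LHCA5*, whose product like that of *LHCA6* links photosystem I to the NDH complex, had a log2 fold change of 0.09 ± 0.06 (adjusted *p*=0.478, edgeR), and *LHCA3* of 0.11 ± 0.06 (adjusted *p*=0.346). Of 13 photosystem I subunit genes 5 passed: *PSAD2*, *PSAE2*, *PSAK*, *PSAN* and *PSAO*, at 1.16- to 1.25-fold. The direction of 2 of them depended on wild-type replicate 1, since with all 9 libraries the log2 fold changes of *PSAN* and *PSAK* were -0.31 and -0.025. In the gene pairs for PsaD and PsaE it was the minor gene that passed, but whether the 2 genes of a pair differed in response was not tested.

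Of 10 photosystem II subunit genes 6 passed. *PSBX* rose 1.26-fold (log2 0.33 ± 0.05, adjusted *p*=0.000525, edgeR), and *PSBP1*, *PSBQ1*, *PSBQ2*, *PSBW* and *PSBTN* rose by 1.13- to 1.25-fold. In the fit with all 9 libraries *PSBTN* had a log2 fold change of -0.12, the opposite direction, and *PSBQ2* of 0.06. *PSBO1* and *PSBO2*, which encode the manganese-stabilizing protein, came close to the threshold (adjusted *p*=0.0571 and 0.0628, edgeR), and *PSBY* had a log2 fold change of -0.11 ± 0.07 (adjusted *p*=0.466). *PETE1*, at 1.28-fold (log2 0.36 ± 0.06, adjusted *p*=0.00108, edgeR), was the only electron carrier gene that passed. The Rieske gene *PETC*, the main leaf ferredoxin gene *FD2*, *FNR1* and *FNR2* did not, nor did *ATPC1* (log2 0.00 ± 0.06) and *ATPD* (0.10 ± 0.06).

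**Figure D3:**
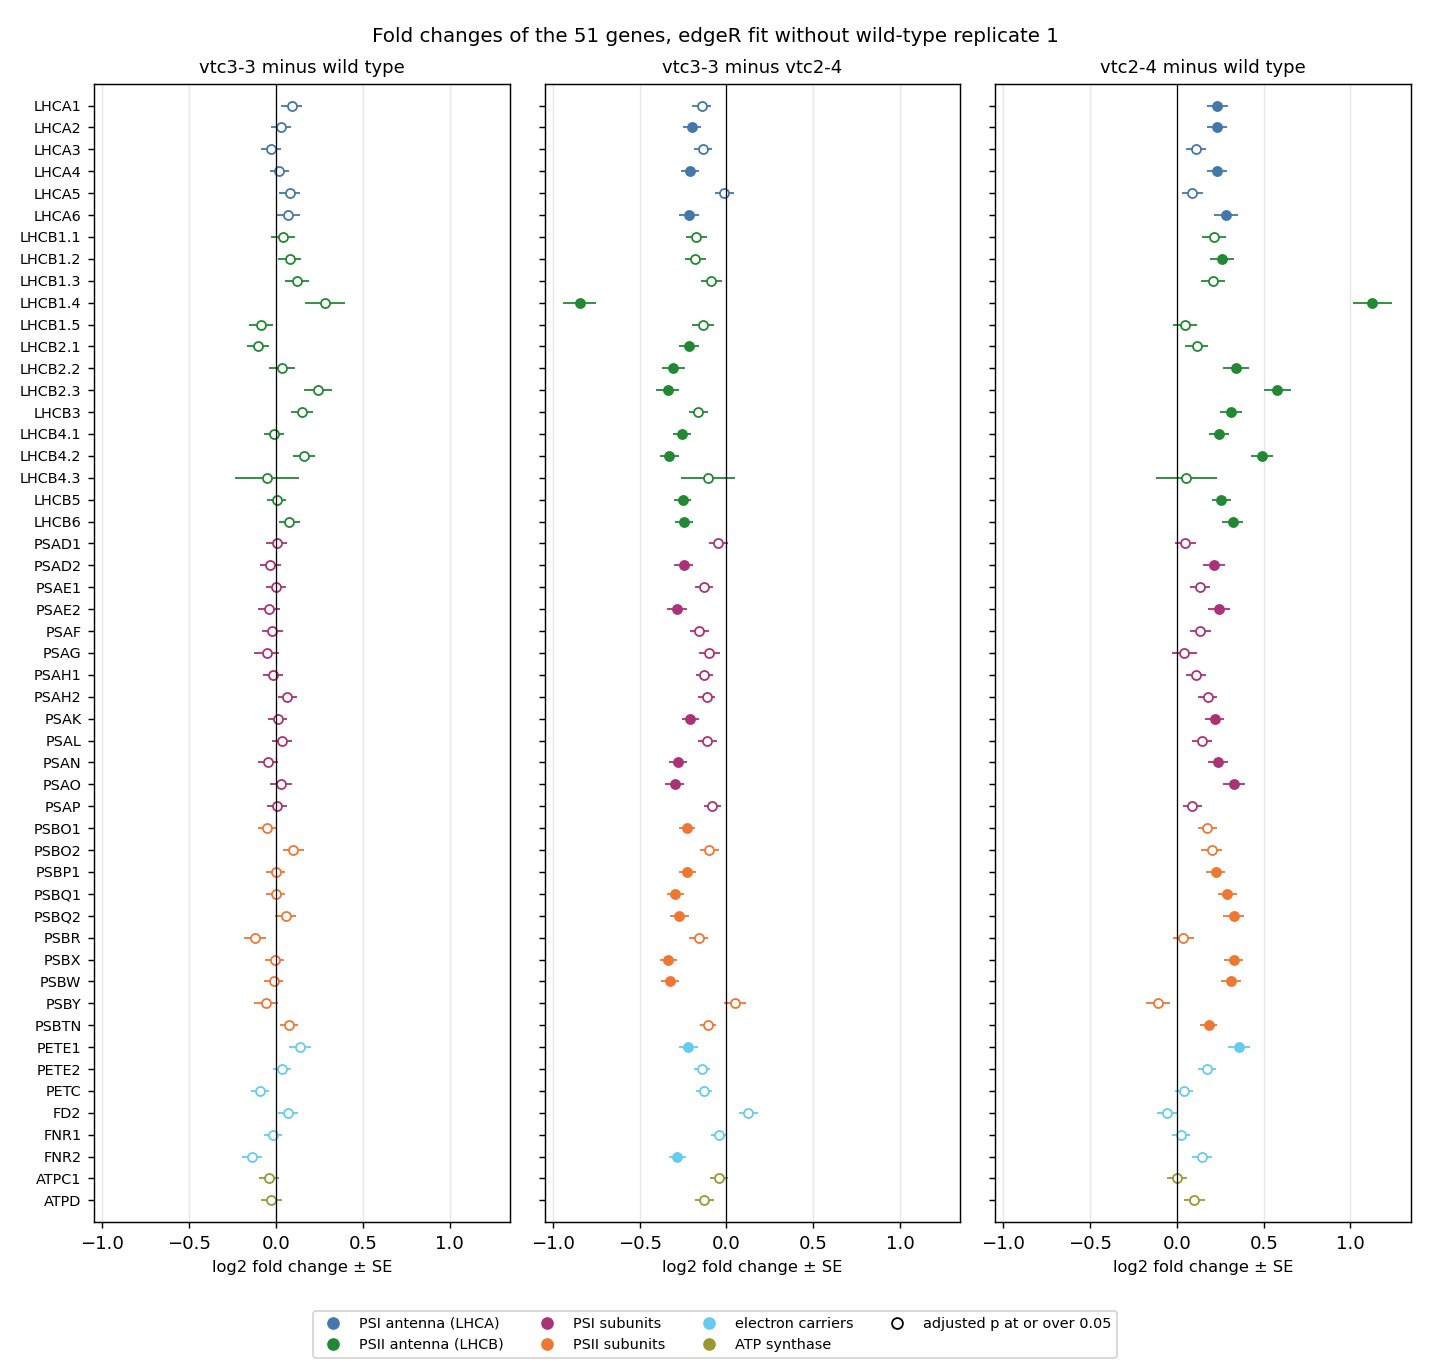
Log2 fold change of each of the 51 genes with its standard error, from the edgeR fit without wild-type replicate 1, for *vtc3-3* minus wild type, *vtc3-3* minus *vtc2-4* and *vtc2-4* minus wild type; filled circles have an adjusted *p* below 0.05 and colours mark the role groups. Filled circles number 0, 24 and 25 in the 3 panels, all 24 below 0 and all 25 above 0, with *LHCB1.4* farthest out.

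In *vtc3-3* none of the 51 genes differed from the wild type in either fit (edgeR's quasi-likelihood test). With all 9 libraries 0.00575% of genes tested passed as higher and 0.0173% as lower, the median log2 fold change of the 51 genes was 0.15 and 36 were above 0. At an unadjusted *p* below 0.05, 1 gene was higher and none lower, against 2.34% and 3.89% of all genes, and DESeq2 and the edgeR exact test called none. Without wild-type replicate 1, where 0.289% of genes passed as higher and 0.391% as lower, the median was 0.00 with 28 genes above 0, and 5 genes were higher and 1 lower at an unadjusted *p* below 0.05, against 4.37% and 4.49% of all genes. All *vtc3-3* libraries lay above all 3 wild-type libraries for 5 of the 51 genes (*LHCA6*, *LHCB2.3*, *LHCB3*, *LHCB4.2* and *PETE1*) and below them for *PSBR* and *FNR2*, against 6.17% and 5.92% of all genes, and for 7 and 5 genes without wild-type replicate 1, against 12.5% and 12.7%. The *vtc3-3* values largest in size without that library were those of the same 3 antenna genes, *LHCB1.4* (0.28 ± 0.11, adjusted *p*=0.437, edgeR), *LHCB2.3* (0.24 ± 0.08, adjusted *p*=0.27) and *LHCB4.2* (0.16 ± 0.06, adjusted *p*=0.409). The comparisons of *vtc3-3* and of *vtc2-4* with the wild type share the wild-type libraries. With all 9 libraries *LHCB1.4* (0.62 ± 0.31), *PSAN* (-0.59 ± 0.30) and *PSBR* (-0.53 ± 0.24) were largest, and without wild-type replicate 1 the values of *PSAN* and *PSBR* were -0.05 ± 0.06 and -0.12 ± 0.06.

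**Figure D4:**
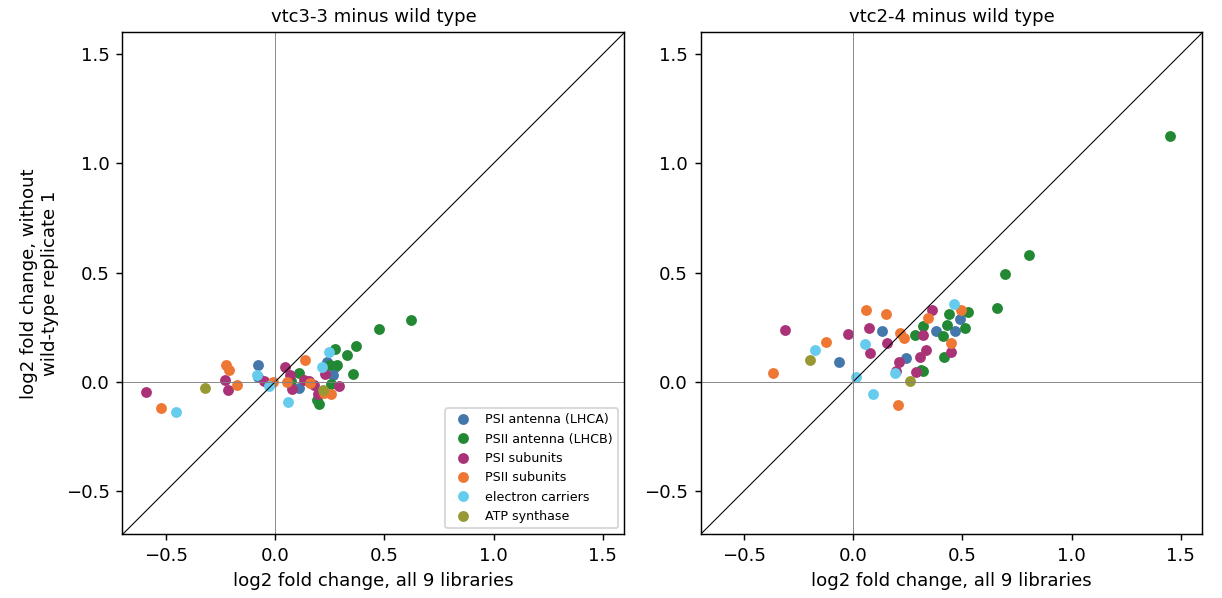
Log2 fold changes of the 51 genes against the wild type in the fit with all 9 libraries (horizontal axis) and in the fit without wild-type replicate 1 (vertical axis), for *vtc3-3* on the left and *vtc2-4* on the right; the diagonal marks equal values and colours mark the role groups. *LHCB1.4* lies at 1.45 and 1.13 in the *vtc2-4* panel, and *PSAN* and *PSBR* move from -0.59 and -0.53 towards 0 in the *vtc3-3* panel.

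The mutants were compared with each other directly, which does not involve the wild-type libraries except through the shared estimate of the spread. With all 9 libraries none of the 51 genes passed (edgeR's quasi-likelihood test), where 0.069% of genes passed as higher and 0.282% as lower in *vtc3-3*, although 49 of the 51 fold changes were below 0, with a median of -0.17 against 0.00 for all genes. At an unadjusted *p* below 0.05, 4 genes were lower and none higher, against 2.65% and 2.46% of all genes, and DESeq2 and the exact test called none. The biological coefficient of variation was 0.186 in that fit and 0.0521 without wild-type replicate 1. In a fit on the 6 mutant libraries alone 24 of the 51 genes were lower in *vtc3-3* and none was higher, where 3.58% of 17357 genes passed as lower and 3.15% as higher, and the same 24 genes passed in the fit without wild-type replicate 1, where the shares of all genes were 3.6% and 3.15%. Without any test, the *vtc3-3* libraries all lay below all *vtc2-4* libraries for 33 genes and all above for none, against 12.2% and 11.3% of all genes.

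The 24 genes comprised 3 *LHCA*, 8 *LHCB*, 5 photosystem I, 6 photosystem II and 2 electron carrier genes. *LHCB1.4* was at 0.557 times its level in *vtc2-4* (log2 -0.84 ± 0.10, adjusted *p*=7.63e-06, edgeR without wild-type replicate 1), *PSBX* at 0.793 times (-0.33 ± 0.05, adjusted *p*=0.000137) and *LHCB2.3* at 0.792 times (-0.34 ± 0.07, adjusted *p*=0.00284). Of the 24 genes, 21 were also among the 25 higher in *vtc2-4* than in the wild type; the 2 comparisons share the *vtc2-4* libraries. The 3 that were not were *LHCB2.1*, *PSBO1* and *FNR2*. *FNR2* had a log2 fold change of -0.28 ± 0.05 between the mutants (adjusted *p*=0.00103, edgeR), beside 0.15 ± 0.06 for *vtc2-4* and -0.14 ± 0.06 for *vtc3-3* against the wild type, neither of which passed. *LHCA1*, *LHCB1.2*, *LHCB3* and *PSBTN* were higher in *vtc2-4* than in the wild type but were not called between the mutants. *FD2* (0.13 ± 0.05) and *PSBY* (0.05 ± 0.06) were the 2 genes with values above 0, and neither passed.

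The deviations of wild-type replicate 1 differed in sign among the light-reaction genes. All 14 *LHCB* genes were below the median of the 8 other libraries, by a median of 0.90 on the log2 CPM scale, and *LHCB1.4* was farthest below, at -1.68. Photosystem II subunits were evenly divided, with 5 above and 5 below, and photosystem I subunits had 5 above and 8 below, among them *PSAN* at 1.24, the highest. In all 35 genes were below and 16 above, and 10 differed by more than 1 log2 unit, against at most 1 gene in any other library. The median exon length of the 51 genes was 1029 bases, shorter than the 1608 of all genes tested, and their median exon GC content was 43.7%, against 41.2%. Among the roles median GC content was highest in the *LHCB* genes (46.7%), and it was 41.6% in photosystem I subunits and 40.4% in ATP synthase subunits.

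Across the 51 genes, the deviation of this library had a correlation of *r*=-0.31 with the logarithm of exon length and of *r*=-0.47 with GC content, both as a description over genes that share the library. The part of length, GC content or RNA quality in the values of the 51 genes was not tested beyond the fits that removed these trends. After removal of the length trend the median log2 fold change was 0.36 for *vtc2-4* and 0.26 for *vtc3-3* against the wild type. Over all genes the medians were -0.006 and -0.002. None of the 51 genes was called (edgeR). Of 17388 genes, 126 passed as higher and 84 as lower in *vtc2-4*, and 0 and 5 in *vtc3-3*. After removal of both trends 2 genes, *LHCB1.4* and *LHCB4.2*, were called in *vtc2-4*, where 1.06% of all genes passed as higher and 0.828% as lower.

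**Figure D5:**
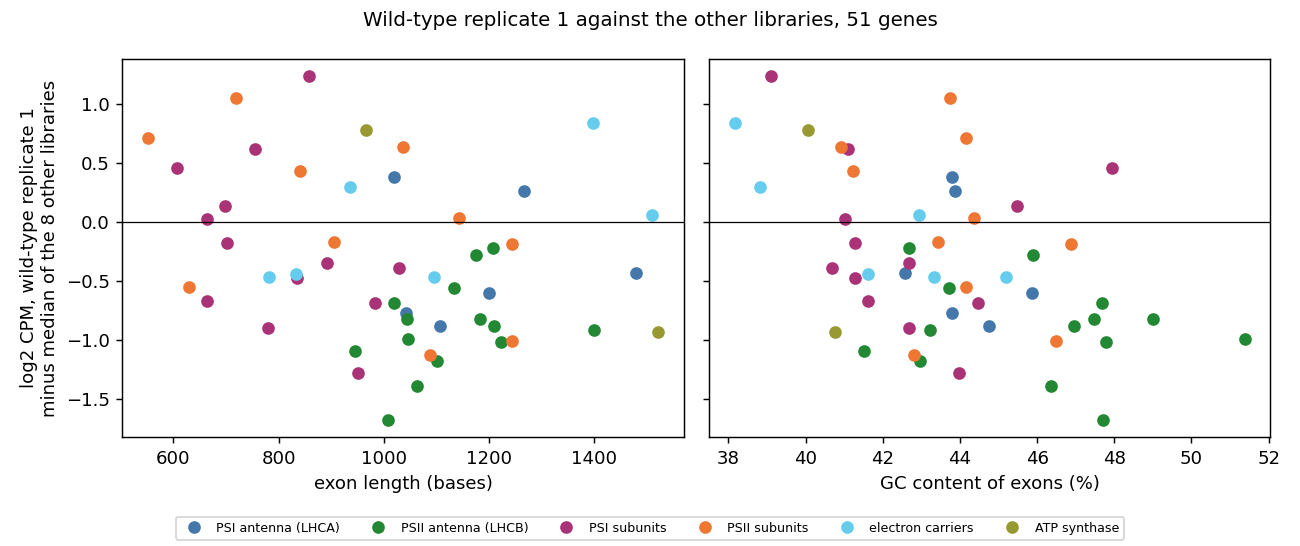
Difference in log2 CPM between wild-type replicate 1 and the median of the 8 other libraries for each of the 51 genes, against exon length in bases on the left and exon GC content in % on the right; colours mark the role groups. Values run from -1.68 for *LHCB1.4* to 1.24 for *PSAN*, and all 14 *LHCB* genes lie below 0.

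A further 24 nuclear genes act in or around the light reactions, including PsbS, NDH subunits, regulators of cyclic electron flow and the kinase genes *STN7* and *STN8*. None of them was called in any comparison with all 9 libraries (edgeR's quasi-likelihood test). Without wild-type replicate 1, 1 of the 24 was higher and 1 lower in *vtc2-4* than in the wild type, where 3.03% of all genes passed as higher and 3.01% as lower. The median log2 fold change over the 24 was 0.02, and 0.01 with all 9 libraries. *CURT1A* (AT4G01150), which curves grana margins, had 316, 319 and 336 RPKM in *vtc3-3*, 356, 372 and 378 in *vtc2-4*, and 284, 314 and 317 in the wild type. It was higher in *vtc2-4* (log2 0.22 ± 0.06, adjusted *p*=0.0214, edgeR) and lower in *vtc3-3* than in *vtc2-4* (-0.20 ± 0.05, adjusted *p*=0.0164). *FD1* (AT1G10960), the minor leaf ferredoxin gene, had 612, 588 and 571 RPKM in *vtc3-3*, 485, 551 and 545 in *vtc2-4*, and 479, 623 and 671 in the wild type, and was lower in *vtc2-4* (-0.30 ± 0.06, adjusted *p*=0.0052, edgeR). Its value in wild-type replicate 1 lay below all others.

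Between the mutants, 1 of these 24 genes was higher and 2 lower in *vtc3-3* without wild-type replicate 1, where 3.15% of all genes passed as higher and 3.6% as lower. The higher one was *NDHL* (log2 0.24 ± 0.06, adjusted *p*=0.015, edgeR without wild-type replicate 1). *NDHL* (AT1G70760), a subunit of the NDH complex, had 203, 196 and 195 RPKM in *vtc3-3*, 172, 161 and 167 in *vtc2-4*, and 418, 178 and 153 in the wild type. *PGRL1A* (AT4G22890), which acts in cyclic electron flow, was lower (-0.16 ± 0.05, adjusted *p*=0.0493), with 341, 331 and 341 RPKM in *vtc3-3*, 366, 371 and 387 in *vtc2-4*, and 369, 369.9 and 355 in the wild type. It did not pass in the fit on the mutants alone (adjusted *p*=0.0591, edgeR). None of the 24 was called in *vtc3-3* against the wild type. *GLK1* and *GLK2*, transcription factors that activate many antenna genes, were not called in any comparison, nor were the 5 shoot markers, which comprised 3 Rubisco small subunit genes, *CA1* and *RCA*. Against the wild type without replicate 1 their log2 fold changes in *vtc2-4* were -0.18 ± 0.09 for *GLK1*, 0.11 ± 0.07 for *GLK2* and a median of -0.03 for the 5 markers. With all 9 libraries all 5 markers were above 0 in both mutants. Their median against the wild type was then 0.21 in *vtc2-4* and 0.26 in *vtc3-3*, beside 0.29 and 0.15 for the 51 genes. The lean of the 51 genes in that fit was thus also seen in these markers.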

How the data were processed

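Shoots of *vtc3-3*, *vtc2-4* and wild type were sequenced by the authors (TruSeq libraries, MiSeq), with 3 libraries each. Reads were processed by the authors in CLC Genomics Workbench, and the genome build, annotation release and strand setting are not given in the sources used here. The deposited table gives read counts per gene (total gene reads, exon reads, unique exon reads and intron reads) and RPKM values, scaled by the authors to exon length and mapped reads, and, deposited as scores, the exon length, exon number and coordinates of each gene. Another 121 columns of per-library values and 22 columns of the authors' means and comparisons (fold changes and tests) were not used.

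Total gene reads were tested with edgeR 4.0.16 in R 4.3.3 (TMM normalization, filterByExpr, quasi-likelihood fit on all 9 libraries with genotype as the only term, Benjamini-Hochberg adjustment over all genes tested, threshold 0.05), and again without wild-type replicate 1, a fit chosen after the data were seen. Standard errors are the absolute log2 fold change divided by the square root of *F*. Deviations of a library used log2(CPM + 0.5) over genes with a mean of at least 10 reads. Alternatives used DESeq2 1.42.0, limma 3.58.1, other counts, scaling and filters, and removal of trends by lowess (span 0.3). Tested on simulated data for *vtc2-4* against wild type, the fit with all 9 libraries (17388 genes) called 24 of 50 genes changed 2-fold and 0 of 50 changed 1.25-fold. That without wild-type replicate 1 (17631 genes) called 49 and 22 of 50, and 1 of 50 changed 1.15-fold. It also called 11 unchanged genes, against 1 in the fit with all 9 libraries. The changed genes were drawn from those with higher mean counts. Simulated counts were independent between genes, with the same spread for a gene in every library. They lacked the length and GC trends of wild-type replicate 1, so that they do not measure the power of the real fit with all 9 libraries.

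The 51 genes and the other lists were chosen with earlier results of these data known. Per-library values are given for genes called with all 9 libraries, the 3 largest fold changes per comparison in both fits, the highest and lowest gene of each role, the *LHCB1* genes and 7 pairs of paralogues, and genes of other lists that were called. Of 28642 identifiers 28009, including all 51, matched RefSeq's TAIR10.1 annotation, from which GC content and sequences were taken. Starts were identical for 10117 of the matched genes only, so that the build of the table was not established from coordinates.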

Additional observations from a re-analysis of the deposited data

Results flagged for a closer look

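The mutants differed from each other in some light-reaction genes in the fit on the 6 mutant libraries alone. There 24 of the 51 genes had an adjusted *p* below 0.05 (edgeR's quasi-likelihood test), all of them lower in *vtc3-3* than in *vtc2-4*, where 3.58% of all genes passed as lower and 3.15% as higher. With all 9 libraries the same test, DESeq2 and the edgeR exact test called 0 of the 51, with 4 at an unadjusted *p* below 0.05 in the same edgeR test. The smallest adjusted *p* in the mutant libraries was that of *LHCB1.4*, with a log2 fold change of -0.84 between *vtc3-3* and *vtc2-4*, and its values in the 3 *vtc3-3* libraries were all below those in the 3 *vtc2-4* libraries.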

How the results depend on the processing

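With all 9 libraries, the number of the 51 genes called in *vtc2-4* against wild type was 0 with edgeR's quasi-likelihood test, 6 with DESeq2, 2 with the edgeR exact test, 2 after removal of the length and GC trends (an alternative added after the data were seen) and 21 with quality weights, and 0 under the other settings. It ranged from 0 to 25 when each library was left out, and was 25 only without wild-type replicate 1. Between *vtc3-3* and *vtc2-4* it was 0, but 24 with only these 2 genotypes and 21 with quality weights (3.29% of all genes lower, 3.07% higher), and 0 to 24 with a library left out. Against wild type *vtc3-3* had 0 calls under every setting tried. The median log2 fold change of the 51 genes ranged from 0.21 to 0.37 (*vtc2-4* against wild type), 0.0045 to 0.23 (*vtc3-3* against wild type) and -0.22 to -0.14 (*vtc3-3* against *vtc2-4*) with a library left out, and for *vtc3-3* against wild type was 0.26 after removal of the length trend and 0.0067 with quality weights.

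Without wild-type replicate 1, settings other than leaving out a further library gave 19 to 30 calls for *vtc2-4* against wild type and 22 to 27 between the mutants. The number of all genes called varied too. It ran from 325 (DESeq2) to 557 (upper-quartile normalization) higher in *vtc2-4* than in wild type, and from 392 to 686 lower in *vtc3-3* than in *vtc2-4* in the same 2 settings. With a further library left out these ranged from 11 to 27 and from 19 to 25, the lowest being 11 without wild-type replicate 2 and 14 without replicate 3, where a single wild-type library remained and was assumed to vary like the others. The medians then ranged from 0.17 to 0.23, from -0.013 to 0.027 for *vtc3-3* against wild type, and from -0.21 to -0.14. Over all genes, leaving out a further mutant library gave 388 to 529 higher in *vtc2-4* than in wild type. Between the mutants it gave 394 to 538 lower in *vtc3-3*.

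Replicate numbers are shared by the genotypes, but deviations of same-numbered libraries were correlated by only -0.025 to 0.09, so that no pairing was assumed. With the replicate block the counts were 0 in each comparison with all 9 libraries (median 0.32, 0.16 and -0.17) and 25, 0 and 24 without wild-type replicate 1. Without that library 450 of 17631 genes passed as higher and 444 as lower in *vtc2-4* against wild type. In *vtc3-3* against wild type 53 and 71 did, and in *vtc3-3* against *vtc2-4* 583 and 669. With all 9 libraries these numbers were 55 and 15, 1 and 3, and 9 and 42, of 17388 genes. Of the 51 genes, 9 changed sign under quality weights in *vtc2-4* and 20 in *vtc3-3* against wild type.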
